A study of Mus musculus with 32 samples.

Results

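The 50 genes described here encode the subunits, regulators and assembly chaperones of the proteasome. They are the symbols of the families Psma to Psmg, pseudogene symbols left out, that had at least 1 count in at least 16 of the 32 libraries, and they stand among 24100 features in all. Every candidate met that minimum. By known role they comprised 7 alpha and 7 beta subunits of the core particle, 5 tissue-specific or inducible core subunits, 17 subunits of the regulatory cap, 5 regulators and 7 assembly chaperones. The cap consisted of 6 ATPases and 3 other subunits of its base, and 8 subunits of its lid. The remaining 2 matched by symbol alone. Psmc3ip encodes a meiotic recombination factor, and Psme2b is a retrogene copy of Psme2 whose reads may be shared with its parent.

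The proteasome degrades proteins that carry ubiquitin chains. In its core particle, stacked rings of alpha and beta subunits enclose the proteolytic sites, and a regulatory cap of base and lid binds the ubiquitin chain, removes it, and unfolds and threads the protein into the core. Other activators, encoded by the Psme genes, can dock on the core in place of the cap, and dedicated chaperones build the rings and the base. In neurons the system clears damaged and short-lived proteins, and mutant SOD1 is one of its known substrates.

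Translating ribosome affinity purification (TRAP) recovered ribosome-bound RNA as an immunoprecipitate (IP) from mouse cortex through a ribosomal protein EGFP-L10a expressed in a bacTRAP line. Per the labels, the Gprin3 line (ES152) marks pyramidal cells of lower layer 5b and the Colgalt2 line (DU9) those of upper layer 5b, in adults of 8 to 17 weeks with no age given for single samples. At baseline, with wild-type mice and primary motor cortex (M1), there were 2 Gprin3 IPs and 3 inputs (RNA of whole tissue), and 2 Colgalt2 IPs and 2 inputs. A second set, the ALS set, crossed both lines to SOD1*G93A mice, which carry a mutant human SOD1 transgene and model amyotrophic lateral sclerosis. It held Gprin3 IPs from 3 SOD1*G93A and 2 wild-type (WT) samples, Colgalt2 IPs from 4 and 3, and M1 inputs from 6 and 5, in the same order. All mice behind the IPs, controls included, carried a bacTRAP transgene. The 7 Colgalt2 IPs of the ALS set came from whole cortex according to the protocol and characteristics, while their source names say M1. Whether replicates came from different animals is not labelled, and p values therefore measure a spread between samples that may be technical. Comparisons that use the same group share its libraries.

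Library totals ran from 10865185 to 77228512 counts. Levels are CPM, read counts scaled to equal library totals, and differences are log2 fold changes ± SE from edgeR's quasi-likelihood test, called at a Benjamini-Hochberg adjusted p under 0.05 over all genes tested. All 6 markers of layer 5b extratelencephalic neurons were higher in every baseline IP of either line than in its inputs, while of 6 interneuron markers 2 were higher and 2 lower in both Gprin3 IPs. The interneuron marker Sst was at 643 and 680 CPM in them against 76.7 to 116 CPM in inputs, and Vip at 9.07 and 12.4 CPM against 24.9 to 31.4 CPM. Glial RNA differed between IPs: the summed level of 6 astrocyte markers was 473 to 493 CPM in baseline Gprin3 IPs, 1424 to 1993 CPM in baseline Colgalt2 IPs, 1132 to 1860 CPM in WT Gprin3 IPs of the ALS set and 404 to 471 CPM in SOD1*G93A Gprin3 IPs. Sod1, counted with any reads of the human transgene that map to it, was at 691 to 733 CPM in SOD1*G93A and 320 to 323 CPM in WT Gprin3 IPs, and at 374 to 453 against 224 to 332 CPM in Colgalt2 IPs. It overlapped between genotypes in M1 inputs, at 357 to 446 against 310.4 to 385 CPM, and the baseline Gprin3 IPs were at 470 and 801 CPM, the second above every SOD1*G93A IP.

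All 31 standard core and cap subunits were detected in every group. Per kilobase of the longest transcript, the scale on which genes can be compared, the core was higher than the cap in all 10 groups. The median over 14 core subunits was 92.1 ± 18.8 CPM per kb (SD, n = 2) in baseline Gprin3 IPs, 71.0 ± 5.38 (n = 3) in their inputs and 43.3 ± 5.26 (n = 3) in WT Colgalt2 IPs of the ALS set. The median over 17 cap subunits was 59.0 ± 1.45, 45.9 ± 3.55 and 38.8 ± 1.45 CPM per kb in the same groups. Regulators and chaperones were lower, at medians of 13.8 ± 0.731 and 15.2 ± 0.261 CPM per kb in baseline Gprin3 IPs.

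Within the core the levels were spread widely. In baseline Gprin3 IPs, Psmb4, a structural beta subunit (chr3:94884093-94886961, mm10), had the highest level at 244 ± 53.4 CPM per kb, and Psma3, an alpha subunit, the lowest of the core at 12.8 ± 3.48. In between, the catalytic subunits Psmb5 (chymotrypsin-like) and Psmb6 (caspase-like) were at 167 ± 14.7 and 152 ± 43.95 CPM per kb, closer to each other than their spread. In the cap the ATPase Psmc5 led with 194 ± 18.7 CPM per kb, and the lid subunit Psmd3 was lowest at 13.8 ± 0.337. These levels depend on the transcript used: with the mean length of coding transcripts the median of the core in baseline Gprin3 IPs was 129.8 ± 14.1 CPM per kb and that of the cap 87.6 ± 5.78, and in WT Colgalt2 IPs the core, at 54.5 ± 7.32, was no longer above the cap, at 59.5 ± 6.33.

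The inducible subunits replace their standard counterparts in the immunoproteasome, which interferon induces in many cells. Psmb8, the counterpart of Psmb5, was at 0.0570 and 0.768 CPM in baseline Gprin3 IPs, 1.26, 1.56 and 2.29 CPM in their inputs, while the Colgalt2 line had 0.151 and 1.56 CPM in its IPs and 0.729 and 0.912 CPM in its inputs. In the ALS set Psmb8 was at 0.655 and 0.938 CPM in Gprin3 IPs of WT mice and 0, 0.170 and 2.14 CPM in those of SOD1*G93A mice, at 0.660, 0.748 and 2.31 CPM in Colgalt2 IPs of WT mice, at 0.212, 0.657, 1.62 and 1.68 CPM in those of SOD1*G93A mice, at 0.576, 0.757, 0.984, 1.29 and 1.47 CPM in WT inputs and from 0.359 to 1.86 CPM, with a median of 1.51 CPM, in SOD1*G93A inputs. The groups overlapped in the SOD1*G93A comparisons of Psmb8, and 1 SOD1*G93A Gprin3 IP held no count of it.

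Psmb9, the counterpart of Psmb6, was as low. It was at 0.0570 and 2.36 CPM in baseline Gprin3 IPs, 0.883, 1.33 and 1.74 CPM in their inputs, while the Colgalt2 line had 0.302 and 2.02 CPM in its IPs and 0.995 and 1.26 CPM in its inputs. In the ALS set it was at 0.715 and 1.30 CPM in Gprin3 IPs of WT mice and 0.378, 0.396 and 2.08 CPM in those of SOD1*G93A mice, at 0.641, 1.96 and 2.76 CPM in Colgalt2 IPs of WT mice, at 0.254, 0.329, 1.41 and 2.74 CPM in those of SOD1*G93A mice, at 0.422, 0.983, 1.01, 1.29 and 2.40 CPM in WT inputs and from 0.676 to 2.92 CPM, with a median of 1.25 CPM, in SOD1*G93A inputs. No SOD1*G93A comparison called Psmb8 or Psmb9, and the smallest adjusted p among them was 0.674, for Psmb8 in M1 input. Psma8, known from testis, and Psmb11, known from thymus, were at most 1.23 and 2.03 CPM in any library.

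Psmb10, the counterpart of the trypsin-like Psmb7, was well above the other inducible subunits. It was at 61.97 and 62.9 CPM in baseline Gprin3 IPs, 44.7, 50.04 and 59.5 CPM in their inputs, while the Colgalt2 line had 23.9 and 50.2 CPM in its IPs and 47.6 and 59.9 CPM in its inputs. In the ALS set it was at 40.3 and 50.1 CPM in Gprin3 IPs of WT mice and 49.3, 51.4 and 79.4 CPM in those of SOD1*G93A mice, at 14.6, 16.6 and 18.1 CPM in Colgalt2 IPs of WT mice, at 15.8, 20.4, 26.8 and 31.9 CPM in those of SOD1*G93A mice, at 35.2, 36.5, 45.5, 47.7 and 48.2 CPM in WT inputs and from 32.5 to 41.1 CPM, with a median of 37.9 CPM, in SOD1*G93A inputs. The WT Colgalt2 IPs lay below all libraries of the other groups except the lowest SOD1*G93A Colgalt2 IP.

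**Figure D1:**
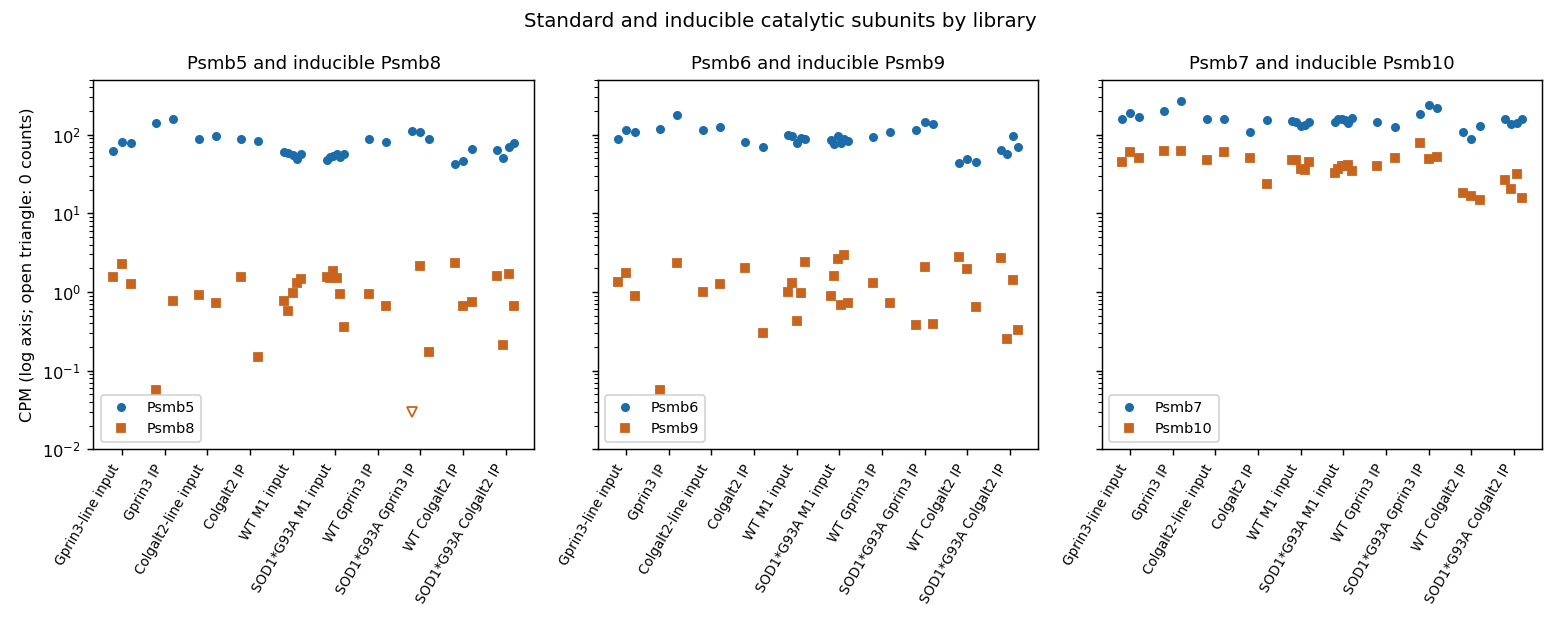
CPM of the standard catalytic subunits (blue circles) and their inducible counterparts (orange squares) in each of the 32 libraries, by group, on a log axis. Psmb8 and Psmb9 stayed under 3 CPM in every library while Psmb10 reached 79.4 CPM, and the open triangle marks the library with no count of Psmb8.

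At baseline, many proteasome genes were higher in Gprin3 IPs than in inputs of whole tissue. Of 48 members tested, 25 were higher in Gprin3 IPs than in inputs and none was lower, while 13.9% of all genes tested were called higher and 15.3% lower. The median log2 fold change was 0.50 over the members and -0.03 over all genes. All 7 beta subunits of the core rose, with a median of 0.73, against 2 of 7 alpha subunits, with a median of 0.39. The cap had 12 of 17 subunits called, among them 4 of 6 ATPases, the 3 other base subunits and 5 of 8 lid subunits. Of the 5 regulators the nuclear activator Psme3 alone was called, at 0.43 ± 0.14, and of the 7 chaperones Psmg1, which helps build the alpha ring, at 0.71 ± 0.24, and Psmd10, a chaperone of the base, at 0.61 ± 0.19. The inducible core subunit Psmb10 was called higher too. None of the calls of Psme3, Psmg1, Psmd10 and Psmb10 held with every library left out in turn. Of 7 other settings they held in 5, 3, 7 and 3, in the same order. The calls of the core subunits Psma7, Psmb3 and Psmb4 did not hold with every library left out either. Nor did those of the cap subunits Psmc2, Psmc3, Psmd1, Psmd2 and Psmd11. Of the 7 other settings the call of Psmc3 held in 4, and those of the other core and cap subunits just named held in all 7.

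Psmb5 (chr14:54614119-54618022) had the largest change of those called. It was at 141 and 159.6 CPM in the IPs and 61.7, 79.2 and 81.00 CPM in the inputs, groups that did not overlap (1.24 ± 0.15, adjusted p = 0.000126). The lid subunit Psmd13 (chr7:140881968-140898643) was at 62.7 and 76.3 CPM in the IPs and 35.5, 36.1 and 41.2 CPM in the inputs, again without overlap (1.11 ± 0.17, adjusted p = 0.000662). Psma2, an alpha subunit, was at 178 and 207 CPM against 111, 118 and 124 CPM (0.93 ± 0.14, adjusted p = 0.000401). Psmd8, the subunit added last to the lid in yeast, was at 134 and 165 CPM against 85.3, 99.6 and 100.1 CPM (0.87 ± 0.14, adjusted p = 0.000932). All 4 were higher in both IPs than in any of the 3 inputs.

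A positive log2 fold change was found for 45 of 48 members. In CPM 30 of 48 lay wholly above the inputs and 2, Psmb8 and Psme4, wholly below, where 15.7% and 40.8% of all genes did. The PA28 subunit genes Psme1 and Psme2 were at 37.3 and 38.8 CPM and 7.13 and 8.98 CPM in the IPs and 22.8, 31.5 and 34.7 CPM and 6.52, 7.36 and 7.65 CPM in the inputs, with adjusted p = 0.0509 and 0.372. Psme4, the gene of the activator PA200, was at 43.3 and 59.7 CPM against 71.3, 76.3 and 85.3 CPM, lower in both IPs but not called (-0.38 ± 0.18, adjusted p = 0.123). Beside this enrichment, all 6 astrocyte, all 6 oligodendrocyte and all 8 microglia markers were lower in both IPs, with astrocyte sums of 473 to 493 against 2005 to 2471 CPM, oligodendrocyte sums of 135 to 151 against 732 to 1006 CPM and microglia sums of 15.7 to 18.2 against 44.2 to 70.5 CPM; the microglial marker Tmem119 had no count in either IP. Their part in the result was not tested. The IPs hold RNA recovered through tagged ribosomes of the marked cells, while the inputs hold RNA of whole tissue. Without the first of the 3 inputs, 14 members were called, all higher. Without the second IP 24 were called higher and Psmb8, Psmb9 and Psme4 lower.

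**Figure D2:**
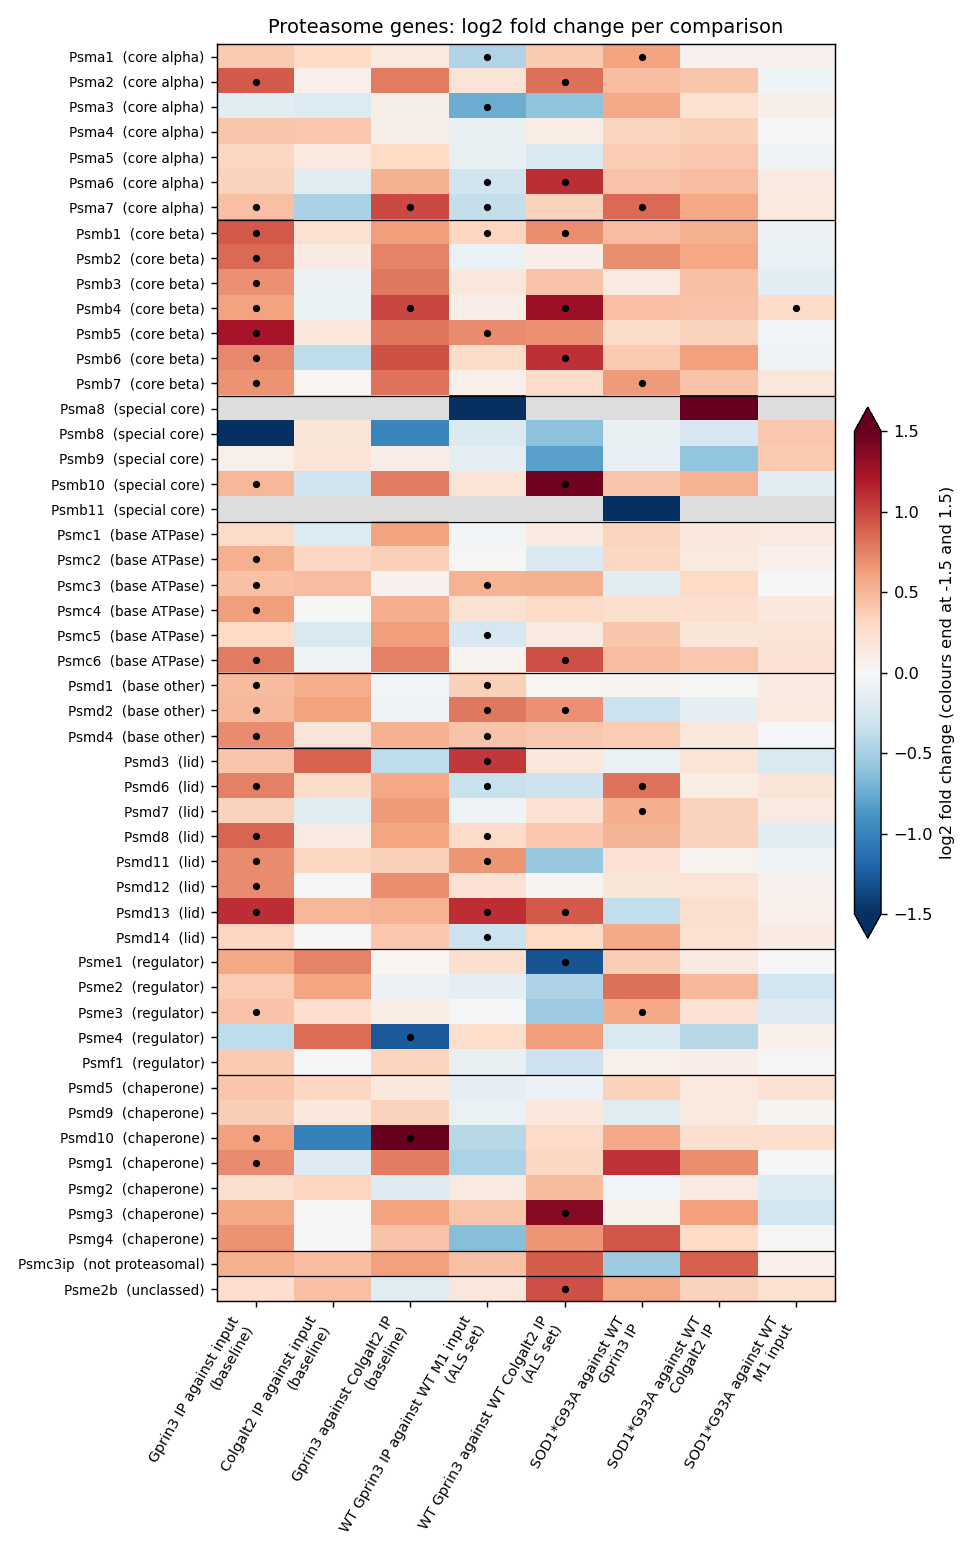
Log2 fold change of each member (rows, ordered by role) in the 8 comparisons of groups (columns), with red for higher and blue for lower in the first-named group, grey for not tested, and a dot for an adjusted p under 0.05. The dots of the first column cover all 7 beta subunits and 12 of 17 cap subunits, and the columns of SOD1*G93A in Colgalt2 IPs and M1 input hold 0 dots and 1 dot.

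The transcription factor Nfe2l1 is known to raise proteasome genes through antioxidant response elements, whose core reads TGACNNNGC. The RefSeq windows of GRCm38.p6 covered 42 of the 50 members, and the 250 bases before the start were searched on both strands. TGACNNNGC occurred in the windows of 5 of those 42 members and in 10.2% of all 32851 windows, and the variant TGAGNNNGC in 10 of 42 members and 14.4% of windows. CCAAT, a core of the NF-Y site that overlaps with neither, occurred in 15 of 42 members and 33.8% of windows. The 4 windows below belong to members that were called higher in baseline Gprin3 IPs and held TGACNNNGC. They are shown 5′ to 3′ toward the start, and capitals mark a match to TGACNNNGC or TGAGNNNGC on either strand. A match is a description of letters only.
Psmb5 (chr14:54617996-54618245, minus strand): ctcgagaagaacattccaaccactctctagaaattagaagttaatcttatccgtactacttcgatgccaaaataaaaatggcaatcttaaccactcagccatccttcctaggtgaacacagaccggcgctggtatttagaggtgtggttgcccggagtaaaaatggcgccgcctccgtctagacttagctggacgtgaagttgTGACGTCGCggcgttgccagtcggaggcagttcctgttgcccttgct
Psmb6 (chr11:70525107-70525356, plus strand): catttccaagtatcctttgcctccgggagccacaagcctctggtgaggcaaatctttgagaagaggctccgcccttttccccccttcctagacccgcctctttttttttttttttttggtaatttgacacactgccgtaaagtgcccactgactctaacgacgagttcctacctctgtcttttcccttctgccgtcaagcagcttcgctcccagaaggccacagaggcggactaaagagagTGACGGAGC
Psmc6 (chr14:45329574-45329823, plus strand): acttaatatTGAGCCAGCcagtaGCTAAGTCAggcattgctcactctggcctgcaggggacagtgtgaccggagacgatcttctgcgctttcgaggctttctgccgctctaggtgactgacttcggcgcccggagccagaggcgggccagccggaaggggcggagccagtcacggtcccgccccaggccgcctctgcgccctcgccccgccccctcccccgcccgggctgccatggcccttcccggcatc
Psmd12 (chr11:107479278-107479527, plus strand): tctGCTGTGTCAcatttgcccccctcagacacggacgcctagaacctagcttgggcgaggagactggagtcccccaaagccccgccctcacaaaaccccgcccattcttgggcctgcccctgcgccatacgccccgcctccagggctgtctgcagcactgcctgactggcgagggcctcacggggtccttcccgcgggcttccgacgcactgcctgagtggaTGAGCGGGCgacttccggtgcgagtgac
In Psmb5 and Psmb6 the match began 47 and 9 bases before the start. Psmc6 and Psmd12 held 1 match of each form, at 241 and 227 bases in Psmc6 and at 247 and 28 bases in Psmd12. The 4 genes were enriched by 1.24 ± 0.15, 0.73 ± 0.17, 0.78 ± 0.14 and 0.71 ± 0.13 in log2 units. Psma2 and Psmd13, enriched by 0.93 ± 0.14 and 1.11 ± 0.17, held neither form in their windows. Psmd9, the other member with TGACNNNGC, had its match 31 bases before the start and was not called in baseline Gprin3 IPs.

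In the Colgalt2 line at baseline no proteasome gene was called between IP and input. Of 48 members 0 passed in edgeR, 5 had an unadjusted p under 0.05 (25.2% of all genes did), and DESeq2 called 3, while edgeR called 2.65% of all genes. The median was 0.15 over the members and 0.03 over all genes, with medians of 0.05 for the core, 0.18 for the cap and 0.59 for the regulators. In CPM, without the scaling factors of the fit, 17 of 48 members lay wholly below the inputs and 5 wholly above, where 42.5% and 18% of all genes did, and the core summed to 1221 and 1313 CPM in the IPs against 1522 and 1571 CPM in the inputs. Psme4 had the smallest p: it was at 109 and 139 CPM in the IPs and 80.6 and 85.04 CPM in the inputs (0.84 ± 0.21, adjusted p = 0.0686), and both IPs lay above both inputs. Psmd10 was at 11.97 and 12.6 CPM against 27.9 and 32.3 CPM, with both IPs below both inputs (-1.01 ± 0.26, adjusted p = 0.0747). Psme1 was at 20.8 and 51.7 CPM and 26.04 and 28.3 CPM, and Psme2 at 6.26 and 10.6 CPM and 5.72 and 8.22 CPM. The 2 Colgalt2 IPs differed from each other: without the first, 14 members were called higher and 4 lower, and without the second, 4 higher and 6 lower, with the lone IP assumed to vary like the inputs.

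Between the lines at baseline, 3 members were higher in Gprin3 IPs and 1 was lower, of 48 tested, where 2.22% of all genes were higher and 4.45% lower. In CPM 30 lay wholly above the Colgalt2 IPs and 3, Psmd1, Psmd3 and Psme4, wholly below, where 26.3% and 27.1% of all genes did. Psmd10 was at 31.9 and 38.9 CPM in Gprin3 and 11.97 and 12.6 CPM in Colgalt2 IPs (1.52 ± 0.35, adjusted p = 0.0203). Psma7 (chr2:180036374-180042433), an alpha subunit, was at 175 and 190.2 CPM against 87.1 and 96.3 CPM (0.99 ± 0.26, adjusted p = 0.0372), and Psmb4 at 245 and 334 CPM against 113 and 179 CPM (0.999 ± 0.27, adjusted p = 0.0445). Psme4 (chr11:30771726-30880361) went the other way, at 43.3 and 59.7 CPM against 109 and 139 CPM (-1.26 ± 0.28, adjusted p = 0.0169). The IPs of the 2 lines did not overlap for any of these 4 genes. The 14 core subunits all had a positive log2 fold change, with a median of 0.76, as had 14 of 17 cap subunits, with a median of 0.53.

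These calls changed with single libraries. Without either Gprin3 IP no member was called, without the second Colgalt2 IP there were 17, and a joint fit of the 9 baseline libraries called 19 members higher and 1 lower. Across 13529 genes the log2 fold change fell with transcript length (Spearman's rho = -0.384), and among 48 members rho was -0.297, values that share the same 4 libraries. With the length trend taken out of each library, no member was called and the median over members fell from 0.53 to 0.22. Astrocyte sums were 473 to 493 CPM in Gprin3 and 1424 to 1993 CPM in Colgalt2 IPs, with 5 of 6 markers lower in both Gprin3 IPs, and vascular sums 2.42 to 3.37 against 35.3 to 82.4 CPM, with 6 of 6 lower. Of 6 oligodendrocyte markers 4 were lower in both Gprin3 IPs, and of 6 interneuron markers 4 were higher and 1 lower, with interneuron sums of 1556 to 1609 against 547 to 757 CPM. Their part in the result was not tested.

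**Figure D3:**
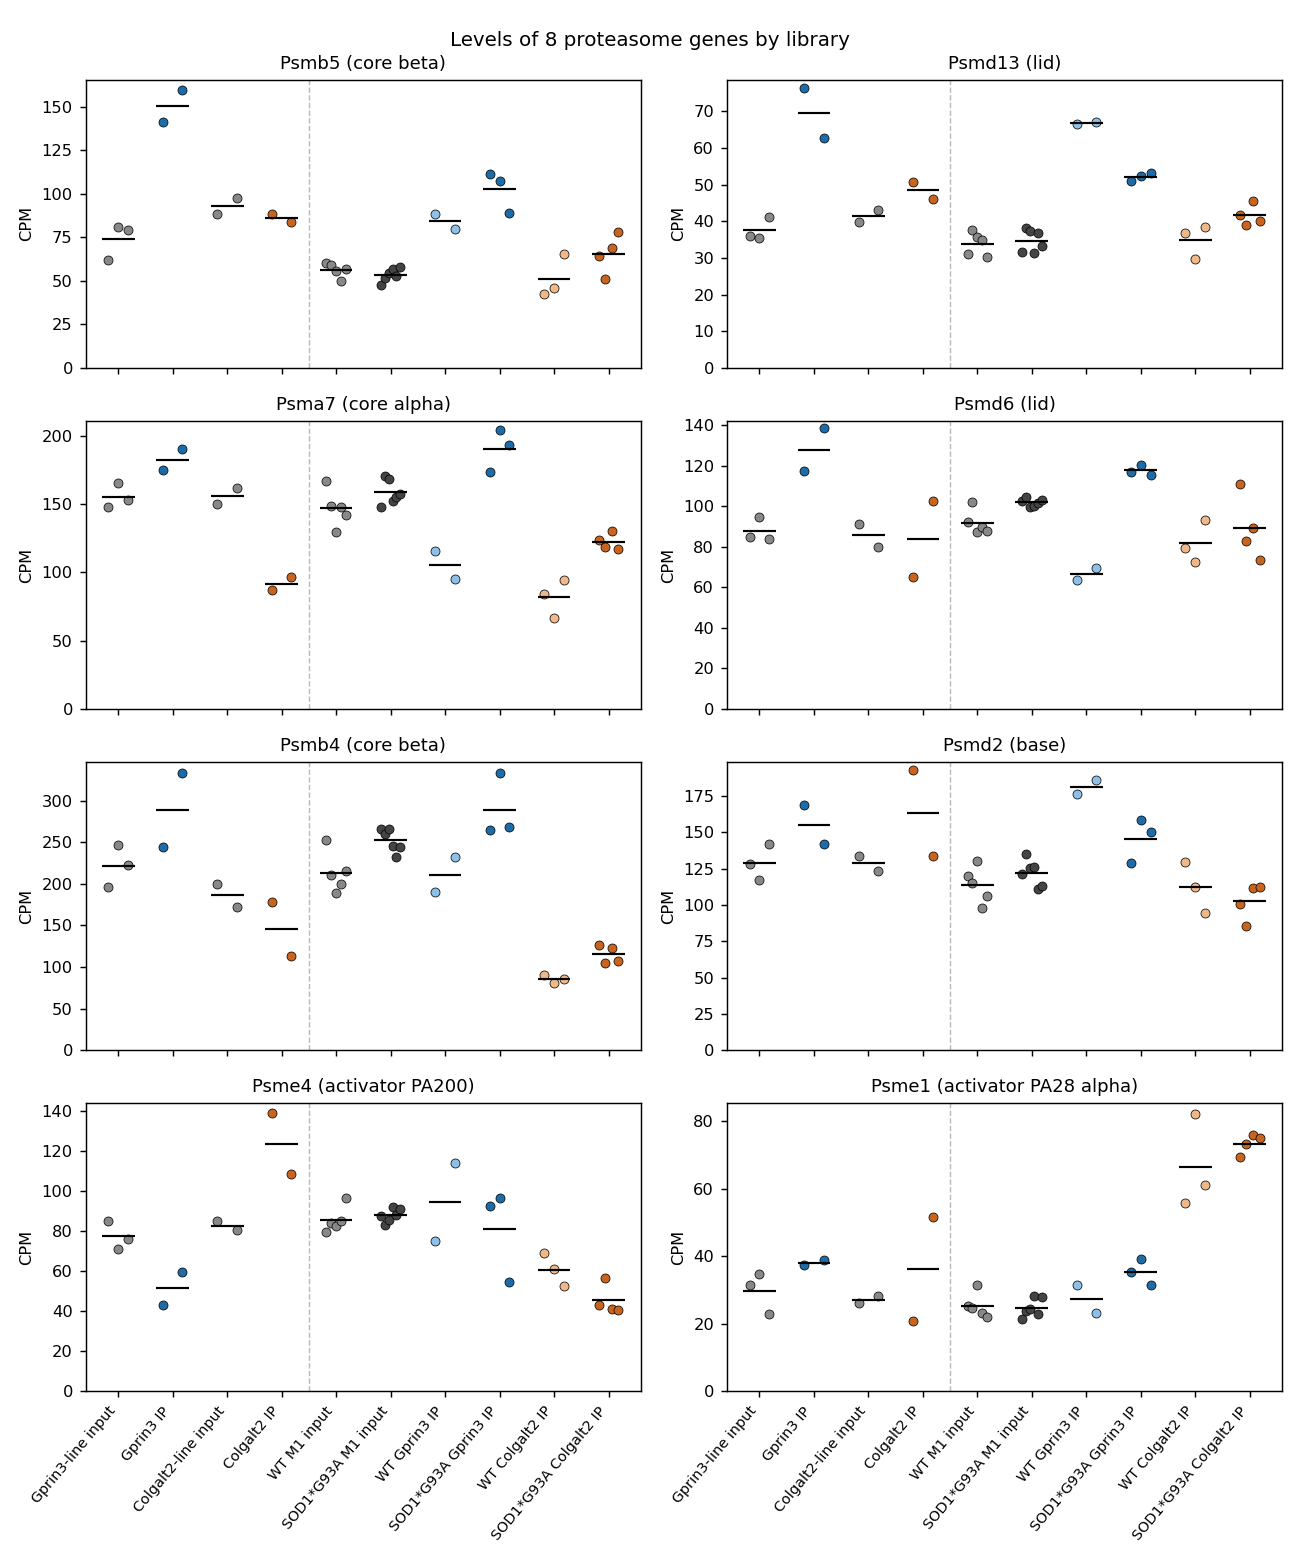
CPM of 8 members in each of the 32 libraries by group, with a line at the group mean and a dashed line between the baseline and ALS sets. Psmb5 and Psmd13 were higher in Gprin3 IPs than in inputs of both sets, Psma7 and Psmd6 were lower than input in WT Gprin3 IPs of the ALS set alone among Gprin3 IPs, and Psme1 was highest in Colgalt2 IPs of the ALS set.

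In the ALS set the WT Gprin3 IPs were compared with WT M1 inputs, a second comparison of Gprin3 IPs with input. Of 49 members 10 were higher and 7 lower, where 20.6% of all genes were higher and 19.8% lower. The median over members was 0.06, against -0.04 over all genes. Subunits of the cap made up 8 of the 10: Psmd1, Psmd2 and Psmd4 of the base, the ATPase Psmc3, and Psmd3, Psmd8, Psmd11 and Psmd13 of the lid. The other 2 were Psmb1 and Psmb5. Alpha subunits made up 4 of the 7 lower members, Psma1, Psma3, Psma6 and Psma7, beside Psmc5, Psmd6 and Psmd14. The members' shares, 10 and 7 of 49, were near or below those of all genes. In CPM 9 members lay wholly above the inputs and 16 wholly below, where 19% and 30.9% of all genes did, among them Psma2 above and Psmb2 below.

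Psmd13 was at 66.6 and 67.02 CPM in WT Gprin3 IPs and 30.2, 31.1, 34.8, 35.6 and 37.6 CPM in WT inputs (1.11 ± 0.12, adjusted p = 8.64e-07), and Psmb5 at 79.8 and 88.5 CPM against 49.6, 55.9, 56.7, 59.1 and 60.1 CPM (0.71 ± 0.11, adjusted p = 4.49e-05). Psmd2, the large base subunit that binds proteins with ubiquitin-like domains, was at 176 and 186 CPM against 97.9, 106, 115, 119.9 and 130.4 CPM (0.79 ± 0.10, adjusted p = 4.65e-06), and the lid subunit Psmd3 at 45.4 and 51.3 CPM against 22.9, 24.8, 25.5, 25.7 and 26.9 CPM (1.06 ± 0.13, adjusted p = 3.32e-06). Both IPs lay above all 5 inputs for each of these 4 genes. Psma1 was at 69.7 and 76.6 CPM against 96.5, 104, 108, 115 and 120.5 CPM (-0.45 ± 0.11, adjusted p = 0.00351), Psma3 at 21.7 and 25.4 CPM against 33.5, 34.03, 43.4, 47.5 and 56.2 CPM (-0.75 ± 0.19, adjusted p = 0.00409), and Psmd14, the deubiquitinating enzyme of the lid, at 100.3 and 118 CPM against 143, 144, 146, 151 and 162 CPM (-0.33 ± 0.10, adjusted p = 0.013). Both IPs lay below all 5 inputs for these 3.

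Psma7 and Psmd6 were called in opposite directions at baseline and in the ALS set. Psma7 was higher in baseline Gprin3 IPs, at 175 and 190.2 CPM against 148, 153 and 166 CPM (0.45 ± 0.13, adjusted p = 0.0226), a call lost without the second IP, the first input or the third (adjusted p = 0.0533, 0.086 and 0.0673), and lower in WT Gprin3 IPs of the ALS set, at 95.1 and 116 CPM against 129.7, 142, 148, 149 and 167 CPM (-0.36 ± 0.11, adjusted p = 0.0179). Psmd6 was at 118 and 138 CPM against 84.1, 84.95 and 94.9 CPM at baseline (0.76 ± 0.14, adjusted p = 0.00176) and at 63.8 and 69.5 CPM against 87.3, 87.6, 89.6, 92.4 and 102 CPM in the ALS set (-0.34 ± 0.11, adjusted p = 0.0173). With the length trend taken out, 18 members were higher in WT Gprin3 IPs than in inputs and Psma3 alone was lower, so that neither Psma7 nor Psmd6 was called, and the median rose to 0.18. Without the second WT Gprin3 IP 7 members were higher and 3 lower. Microglia markers were lower in these IPs for 5 of 8 genes, astrocyte markers for 4 of 6 and oligodendrocyte markers for 5 of 6, with astrocyte sums of 1132 to 1860 against 1925 to 2737 CPM and oligodendrocyte sums of 369 to 519 against 685 to 929.8 CPM. Of 6 interneuron markers 3 were higher and 3 lower in both IPs, with sums of 1446 to 1515 against 1009 to 1139.7 CPM; their part in the result was not tested.

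Between WT IPs of the ALS set, 11 of 48 members were higher in Gprin3 than in Colgalt2 IPs and 1 was lower, where 6.9% of all genes were higher and 6.1% lower. In CPM 24 lay wholly above the Colgalt2 IPs and 7 wholly below, where 25% and 22.7% of all genes did. Line and dissection, M1 against whole cortex, cannot be told apart here. Psmb4 was at 189.8 and 232 CPM in Gprin3 and 80.6, 85.8 and 90.2 CPM in Colgalt2 IPs (1.28 ± 0.18, adjusted p = 0.00163), Psmb6 at 93.1 and 107 CPM against 43.7, 45.6 and 49.5 CPM (1.10 ± 0.19, adjusted p = 0.00558), and Psma6, an alpha subunit, at 134 and 140.1 CPM against 46.7, 64.96 and 78.2 CPM (1.10 ± 0.22, adjusted p = 0.00894). Psmb10, with the values given above, differed by 1.45 ± 0.23, adjusted p = 0.00324. None of these 4 genes overlapped between the lines. The other members called higher were Psma2, Psmb1, Psmc6, Psmd2, Psmd13, Psmg3 and Psme2b.

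Psme1 was the 1 member lower in Gprin3 IPs, at 23.2 and 31.4 CPM against 55.6, 61.1 and 82.2 CPM (-1.30 ± 0.26, adjusted p = 0.00947). It encodes a subunit of the PA28 activator, whose other subunit gene Psme2 was at 2.73 and 3.10 CPM against 3.24, 3.38 and 5.20 CPM and was not called (-0.46 ± 0.50, adjusted p = 0.579). In the inputs Psme1 was at 21.9, 23.2, 24.8, 25.4 and 31.6 CPM in WT mice, below all 7 Colgalt2 IPs of the set. In SOD1*G93A mice Psme1 was at 69.2, 73.2, 74.98 and 75.8 CPM in Colgalt2 IPs, 31.5, 35.3 and 39.2 CPM in Gprin3 IPs and from 21.5 to 28.2 CPM, with a median of 24.2 CPM, in inputs. Psme2 was at 3.94, 5.61, 5.62 and 7.33 CPM and 3.08, 5.09 and 7.60 CPM in the same IPs, from 2.21 to 3.43 CPM, with a median of 2.82 CPM, in SOD1*G93A inputs and 3.05, 3.23, 3.33, 3.93 and 4.03 CPM in WT inputs. For SOD1*G93A neither gene was called in either line or in input. At baseline the 2 Colgalt2 IPs spread from 20.8 to 51.7 CPM and Gprin3 and Colgalt2 IPs overlapped. Without either WT Gprin3 IP 2 and 1 members were called, and without the second WT Colgalt2 IP 3 were. The summed level of vascular markers was 3.40 to 11.5 CPM in Gprin3 and 23.5 to 77.4 CPM in Colgalt2 IPs, and that of interneuron markers 1446 to 1515 against 372 to 635 CPM; their part in the result was not tested.

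The effect of SOD1*G93A was tested within each line. In Gprin3 IPs 6 of 49 members were higher in SOD1*G93A than in WT mice and none was lower, where 2.92% of all genes were higher and 5.22% lower. The median over members was 0.38, against 0.01 over all genes. The 14 core subunits all had a positive log2 fold change, with a median of 0.45, and Psma1, Psma7 and Psmb7 were called. In the cap 13 of 17 were positive, with a median of 0.31, and the lid subunits Psmd6 and Psmd7 were called. Among the regulators Psme3 was called, and among the chaperones none; Psmg1 had the largest change, 1.08 ± 0.30, adjusted p = 0.0512.

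Psma7 was at 174, 194 and 204 CPM in SOD1*G93A and 95.1 and 116 CPM in WT Gprin3 IPs (0.85 ± 0.14, adjusted p = 0.0063), and Psmd6 at 116, 117 and 120.4 CPM against 63.8 and 69.5 CPM (0.82 ± 0.15, adjusted p = 0.00859). Psmb7, the trypsin-like subunit, was at 183, 218 and 236 CPM against 125 and 146 CPM (0.64 ± 0.14, adjusted p = 0.0219), and Psmd7, which pairs with the deubiquitinating enzyme in the lid, at 199, 205 and 205 CPM against 132 and 146 CPM (0.54 ± 0.13, adjusted p = 0.0281). All 3 SOD1*G93A IPs lay above both WT IPs for each of them. In CPM, 29 of 49 members lay wholly above WT and 3 wholly below, against 20.8% and 21.9% of all genes. The 3 below were Psmc3, Psmd2 and Psmd13. In edgeR 21 of 49 members had an unadjusted p under 0.05, against 23.6% of all genes. Psmd13 was at 50.9, 52.2 and 53.1 CPM against 66.6 and 67.02 CPM and was not called (-0.36 ± 0.17, adjusted p = 0.22), nor was Psmd2, at 129, 150.0 and 158 CPM against 176 and 186 CPM (-0.32 ± 0.13, adjusted p = 0.164). The WT Gprin3 IPs enter both this comparison and that with input, so the values of Psma7 and Psmd6 in the 2 comparisons share those libraries. Baseline Gprin3 IPs, also from wild-type mice, were at 175 and 190.2 CPM for Psma7 and 118 and 138 CPM for Psmd6. They were at 200.2 and 269.6 CPM for Psmb7 and 149.8 and 163.3 CPM for Psmd7. For each of these genes both baseline IPs lay above both WT IPs of the ALS set. For Psmd7 both lay below all SOD1*G93A IPs. The 2 sets were not compared by a test.

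The count of 6 moved with single libraries and with transcript length. It was 1 and 0 without the first and second WT IP, 14 without the first and 2 without the third SOD1*G93A IP, and 14 in DESeq2. Across 13659 genes the log2 fold change fell with transcript length (rho = -0.386), and rho was -0.483 among 49 members, over the same 5 libraries. The median length of the longest transcript was 1220 bases for the core, 1983 for the cap and 2725 over all genes with a length. With the length trend taken out, no member was called, 10 had an unadjusted p under 0.05, the median over members was 0.07 and that of the core 0.10. Glial markers moved too: all 6 astrocyte markers, 4 of 6 oligodendrocyte and 7 of 8 microglia markers were lower in all SOD1*G93A IPs, with sums of 404 to 471 against 1132 to 1860, 111 to 128 against 369 to 519 and 11.3 to 15.6 against 29.0 to 47.5 CPM. Of 6 layer 5b markers 4 were higher in all SOD1*G93A IPs than in both WT IPs. Of 6 interneuron markers 2 were higher and 1 lower, and of 6 vascular markers 3 were lower. The part of these markers in the result was not tested.

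**Figure D4:**
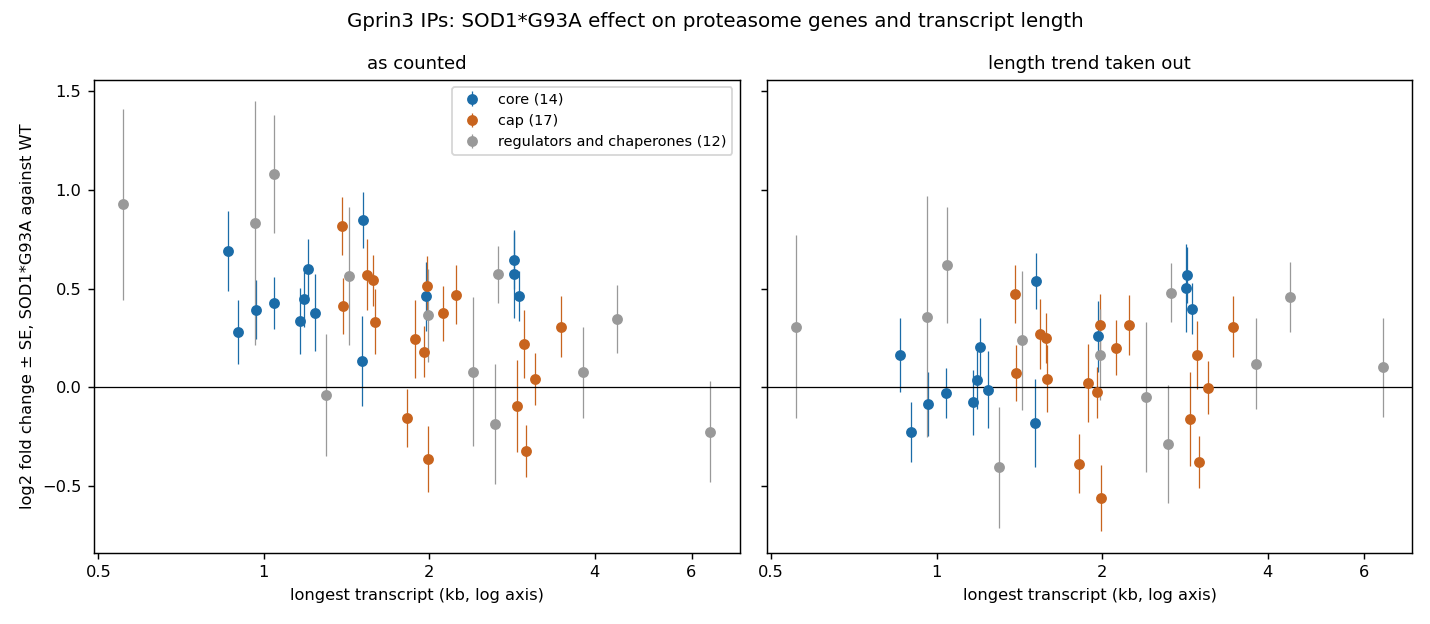
Log2 fold change ± SE of core, cap, and regulator and chaperone genes in SOD1*G93A against WT Gprin3 IPs, against the length of the longest transcript (log axis), as counted on the left and with each library's length trend taken out on the right. On the left all 14 core subunits are above 0, and on the right 8 of 14 are.

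In Colgalt2 IPs no member was called for SOD1*G93A, nor was any of the 14785 genes tested (0%) in edgeR; 13 of 49 members had an unadjusted p under 0.05, where 7.26% of all genes did, and DESeq2 called 63 genes with 1 member among them. All but 1 of the 13, Psme4 at -0.42 ± 0.18, were higher. The median was 0.26 over the members and 0.00 over all genes, with 0.43 for the core and 0.20 for the cap. Psmb2, a structural beta subunit, was at 85.04, 85.1, 94.7 and 96.8 CPM in SOD1*G93A and 57.8, 59.02 and 63.4 CPM in WT IPs (0.58 ± 0.15, adjusted p = 0.387), and Psma7 at 117, 119, 124 and 130.4 CPM against 66.95, 84.1 and 94.4 CPM (0.58 ± 0.16, adjusted p = 0.394). The groups did not overlap for either gene. In CPM 13 of 49 members lay wholly above WT and 0 wholly below, against 4.46% and 2.79% of all genes. Here too the log2 fold change fell with transcript length, with rho = -0.345 across 14699 genes and -0.520 among the 49 members. With that trend taken out the median over members was 0.15 and 4 members had an unadjusted p under 0.05. No astrocyte, oligodendrocyte or microglia marker lay wholly apart between these groups, while 1 of 6 layer 5b markers lay wholly above WT and 1 of 6 interneuron markers wholly below.

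The difference between the lines in the SOD1*G93A effect was tested directly, and no member of 50 was called, while 12 genes (0.0775%) were; 2 members had an unadjusted p under 0.05, against 9.26% of all genes, and DESeq2 called none. As between the WT IPs of this set, line and dissection cannot be told apart in this test. The smallest p belonged to Psmd6, whose effect was larger in Gprin3 IPs by 0.73 ± 0.25 (adjusted p = 0.329). Psmd6 was at 73.5, 83.1, 89.2 and 111 CPM in SOD1*G93A and 72.4, 79.5 and 93.4 CPM in WT Colgalt2 IPs, which overlapped. Psmd13 followed, with a difference of -0.58 ± 0.26, lower in Gprin3 IPs (adjusted p = 0.489), and was at 39.1, 40.02, 41.8 and 45.6 CPM against 29.6, 36.7 and 38.5 CPM in Colgalt2 IPs.

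In M1 input 1 of 48 members was higher in SOD1*G93A and none was lower, where 2.13% of all genes were higher and 1.2% lower. It was Psmb4, from 232 to 266 CPM, with a median of 253 CPM, in 6 SOD1*G93A inputs and at 189, 199.8, 210.3, 215 and 253 CPM in 5 WT inputs, groups that overlapped (0.28 ± 0.07, adjusted p = 0.0213). The median was 0.07 over the members and -0.02 over the core. In CPM the ATPase Psmc6 and the chaperone Psmd5 lay wholly above WT and Psme3 wholly below, where 1.28% and 2.32% of all genes did. No member was called without WT input 3, 4 or 5, or without SOD1*G93A input 1 or 3, while DESeq2 called 4 members. Psma7 was from 148 to 171 CPM, with a median of 157 CPM, in SOD1*G93A inputs, against 129.7, 142, 148, 149 and 167 CPM in WT inputs, and Psmd6 was from 99.6 to 104 CPM, with a median of 102 CPM, against 87.3, 87.6, 89.6, 92.4 and 102 CPM; both overlapped. The excitatory marker Slc17a7 was lower in every SOD1*G93A input than in any WT input, at 231 to 307 against 311 to 361 CPM, as were 2 of 6 layer 5b markers and 1 of 6 interneuron markers, while no glial marker lay wholly apart. Their part in the result was not tested.

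The SOD1*G93A effect in Gprin3 IPs was then set against that in M1 input. In 14 of 50 members it was more positive in the IPs and in 1 more negative, where 6.78% and 11.4% of all genes were. Those more positive were 7 core subunits, 5 cap subunits, Psme3 and Psmg1. Psme3 was at 145, 149 and 166 CPM in SOD1*G93A and 102 and 104 CPM in WT Gprin3 IPs, and from 93.5 to 105 CPM, with a median of 95.7 CPM, in SOD1*G93A and at 106, 108, 109, 118 and 134 CPM in WT inputs (0.76 ± 0.14, adjusted p = 0.000366). Its levels were thus higher in SOD1*G93A IPs and lower in SOD1*G93A inputs, without overlap in either. Psmd6 differed by 0.61 ± 0.12, adjusted p = 0.000951, and Psma7 by 0.68 ± 0.14, adjusted p = 0.00101. Psmd8 was at 121, 143 and 151 CPM against 93.5 and 99.5 CPM in the IPs, and from 66.5 to 82.9 CPM, with a median of 74.8 CPM, against 80.2, 81.2, 86.8, 87.1 and 95.6 CPM in the inputs (0.68 ± 0.15, adjusted p = 0.00206). Psmd2 was the 1 member more negative (-0.47 ± 0.14, adjusted p = 0.0201), from 111 to 135 CPM, with a median of 123 CPM, in SOD1*G93A and at 97.9, 106, 115, 119.9 and 130.4 CPM in WT inputs. With the length trend taken out 5 members were more positive and 2 more negative, and without the second WT Gprin3 IP 7 were more positive.

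Summed levels set the core against the cap. The 14 core subunits summed to 1759.5 to 1972 CPM in SOD1*G93A and 1292 to 1315 CPM in WT Gprin3 IPs, and the 17 cap subunits to 2188 to 2458 against 1901 CPM in both WT IPs. In Colgalt2 IPs the core summed to 1041 to 1272 CPM in SOD1*G93A and 775 to 947 CPM in WT mice, and the cap to 1748 to 1890.0 against 1548 to 1682 CPM. Core sums and cap sums thus did not overlap between genotypes in either line. Of all single genes, 20.8% lay wholly above WT and 21.9% wholly below in Gprin3 IPs, and 4.46% and 2.79% in Colgalt2 IPs. No such share was computed for sums or ratios. In baseline Gprin3 IPs, also from wild-type mice, the core summed to 1836 and 2281 CPM and the cap to 2240 and 2352 CPM. The core sum divided by the cap sum was 0.790 to 0.837 against 0.680 and 0.692 in Gprin3 IPs, 0.590 to 0.689 against 0.501 to 0.563 in Colgalt2 IPs, and 0.712 to 0.794 against 0.682 to 0.864 in M1 inputs, where the genotypes overlapped. At baseline it was 0.820 and 0.970 in Gprin3 IPs, 0.783 to 0.855 in their inputs, 0.756 and 0.724 in Colgalt2 IPs and 0.839 and 0.816 in the inputs of that line. The length trend was not taken out of these sums and ratios. Core transcripts were shorter than those of the cap, with medians of 1220 and 1983 bases. The SOD1*G93A fold change fell with length over all genes in both lines (rho = -0.386 and -0.345). The part of length in the ratios was not tested. The regulators summed to 303 to 345 CPM in WT Colgalt2 IPs and 245 to 278 CPM in WT Gprin3 IPs, the order opposite to that of the core.

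**Figure D5:**
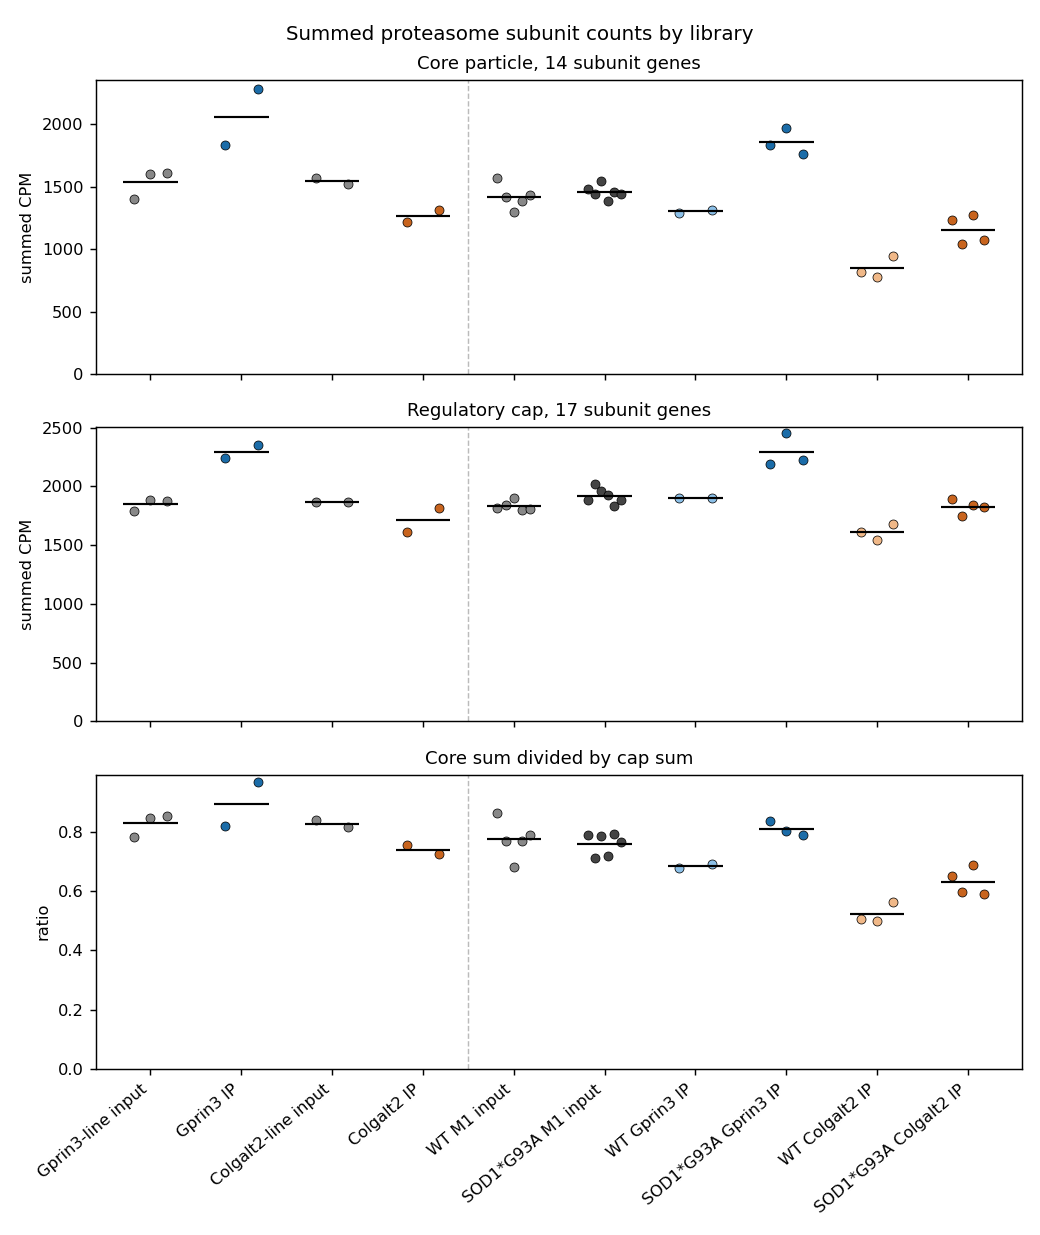
Summed CPM of the 14 core and 17 cap subunits and their ratio in each of the 32 libraries by group, with a line at the group mean and a dashed line between the baseline and ALS sets. WT Colgalt2 IPs of the ALS set had the lowest ratios, 0.501 to 0.563, and SOD1*G93A IPs of each line lay above its WT IPs. The trend with transcript length was not taken out.

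Other genes of the ubiquitin and proteasome pathway were counted from a list of 40 symbols, of which 36 were in the tables and tested. In baseline Gprin3 IPs 13 were higher than in input and 1 was lower, where 13.9% and 15.3% of all genes were. The chaperone Hsp90aa1 was at 1268 to 1288 CPM against 608 to 791 CPM (1.03 ± 0.14, adjusted p = 0.000245), the ubiquitin-activating enzyme Uba1 at 294 to 359 CPM against 180.2 to 201 CPM (1.02 ± 0.14, adjusted p = 0.000313), and Pomp, the maturation factor of the core, at 313 to 407 CPM against 198 to 220.2 CPM (0.98 ± 0.14, adjusted p = 0.000348). Nfe2l2, a transcription factor of the oxidative stress response that is well expressed in glia, was the 1 lower, at 4.73 to 5.59 CPM against 12.7 to 15.5 CPM (-1.19 ± 0.29, adjusted p = 0.00959). None was called in the Colgalt2 line at baseline, between the lines at baseline, for SOD1*G93A in Colgalt2 IPs or between lines in that effect.

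For SOD1*G93A in Gprin3 IPs 1 of the 36 was higher and 2 were lower, where 2.92% and 5.22% of all genes were. AI314180, the proteasome adaptor also known as Ecm29, was at 124 to 138 CPM against 187 to 193 CPM (-0.54 ± 0.13, adjusted p = 0.0309), and Nfe2l2 at 0.810 to 4.78 CPM against 12.5 to 13.9 CPM (-2.48 ± 0.64, adjusted p = 0.0401). The 3 genes called in M1 input were higher, where 2.13% of all genes were: Akirin2, a nuclear import factor of proteasomes, by 0.29 ± 0.06, adjusted p = 0.0125, Zfand5 by 0.23 ± 0.06, adjusted p = 0.033 and the proteasome-bound deubiquitinase Usp14 by 0.21 ± 0.06, adjusted p = 0.0466. In WT mice of the ALS set 11 were higher and 6 lower in Gprin3 IPs than in input, where 20.6% and 19.8% of all genes were, led by Uba1 at 1.09 ± 0.09, adjusted p = 1.63e-08, Hsp90aa1 at 0.97 ± 0.08, adjusted p = 1.75e-08 and Vcp, the segregase that extracts ubiquitinated proteins, at 0.92 ± 0.10, adjusted p = 4.77e-07. Between the WT IPs 6 were higher in Gprin3 and 3 in Colgalt2 IPs, where 6.9% and 6.1% of all genes were, led by Sem1, the smallest lid subunit, at 1.72 ± 0.23, adjusted p = 0.00136, Ube3a at 1.44 ± 0.19, adjusted p = 0.0014 and Rps27a at 1.64 ± 0.31, adjusted p = 0.00793. For the SOD1*G93A effect in Gprin3 IPs against that in input, 3 were more positive and 4 more negative, where 6.78% and 11.4% of all genes were, led by Nfe2l2 at -2.20 ± 0.46, adjusted p = 0.00166, AI314180 at -0.55 ± 0.12, adjusted p = 0.00266 and Pomp at 0.47 ± 0.12, adjusted p = 0.0084.

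The authors' deposited tables, made with another test, give their own adjusted p for 6 of these comparisons. At an adjusted p under 0.05 the authors' deposited tables call 23 of 50 members higher in Gprin3 IPs than in input, with 17.3% of their 24091 genes called in either direction. Those tables call 4 higher and 2 lower in Colgalt2 IPs than in input (12.6% of genes), and 19 higher and 1 lower between the lines at baseline (16.6%). For SOD1*G93A the authors' deposited tables call 8 members higher in Gprin3 IPs (7.89%), 3 higher in Colgalt2 IPs (0.498%) and none in M1 input (0.0706%). All these shares count both directions over all 24091 genes, low counts included, and so are smaller than shares of genes tested. The tables call 1901 genes for SOD1*G93A in Gprin3 IPs and 3040 for Colgalt2 IPs against input. In these comparisons edgeR tested 13726 and 14240 genes. For members with exons that overlap another gene on the opposite strand, reads cannot be split here since the counting is not stated to use strand. This overlap covered 11.8% of the exonic bases of Psmb7 (Nek6), 10.1% of Psmd13 (Sirt3) and 8.2% of Psmc3 (Slc39a13). It was 25.5% in Psmd9, 21.2% in Psmc3ip, 14.7% in Psmb8, 5.8% in Psmb9, 4.8% in Psma4, 4.5% in Psma5, 3.5% in Psmd1 and under 1% in Psmd3 and Psme1. On the same strand, exons of another gene covered 12.1% of the exonic bases of Psmb5 (Mir686) and 9.7% of Psmg3 (Gm26938). They covered 4.9% of Psme2b and 4.1% of Psmd1, and no strand setting separates such reads.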

How the data were processed

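RNA from TRAP immunoprecipitates and whole-tissue inputs was sequenced in 32 libraries. The deposited values are raw read counts per gene, made with Subread and featureCounts on mm10 per the submitters' processing notes; their versions and strand setting are not given in the sources used here. The deposited comparison tables hold the authors' log2 fold changes and adjusted p-values, made with DESeq2 1.26.0 per the same notes. They also hold 36 columns of values per library that were not used.

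The 9 features without a symbol held at most 0.0201% of a library's counts and stayed out. Each comparison was fitted over the whole table with edgeR 4.0.16 and limma 3.58.1 in R 4.3.3 (filterByExpr, TMM, robust quasi-likelihood F test, Benjamini-Hochberg adjustment), after a check on simulated data. SE is the fold change divided by the square root of F. Levels per kilobase use the longest annotated transcript. Library totals of 10865185 to 77228512 counts set the precision. Alternatives were DESeq2 1.42.0, other size factors and filters, removal of each library's trend with transcript length (loess, span 0.5), a joint fit of each set, a replicate block, and leaving out each library. For SOD1*G93A in Colgalt2 IPs alone, the sequenced read (R1 or R2, where the deposited names give it) was also a covariate. The read was not the same in all of those libraries. Tables were handled with pandas 2.3.3 and numpy 2.4.6, and promoter windows came from RefSeq.

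The members and lists were chosen with earlier results of these data known. Values in every sample (in the group of 6, lowest, median and highest) are given for up to 4 members called in each direction with the smallest p in each comparison, for the leading 2 by unadjusted p where none was called, for Psma7 and Psmd6, and for the inducible subunits with Psme1 and Psme2. The result of 1 gene of the pathway list is not reported here.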

Additional observations from a re-analysis of the deposited data

Results flagged for a closer look

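In 4 of 123 tests, of groups of 4 to 6 libraries, 1 library stood apart from the others of its group by Dixon's test, and chance flags about 1 in 20 groups. The second SOD1*G93A Colgalt2 IP had 15.0 CPM of Psmd10, against 22.2 to 23.3 CPM in the other 3, and 56.8 CPM of Psme4, against 40.9 to 43.4 CPM. WT M1 input 4 had 112 CPM of Psma2, against 119 to 122 CPM in the other 4. SOD1*G93A M1 input 4 had 30.9 CPM of Psme2b, against 19.4 to 23.7 CPM in the other 5.

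The effect of SOD1*G93A differed between Gprin3 IPs and M1 input for 15 members by the interaction term in edgeR's quasi-likelihood test. The difference, in log2 units, was 0.53 for Psma1, 0.52 for Psma2, 0.68 for Psma7, 0.53 for Psmb1, 0.78 for Psmb2, 0.44 for Psmb6 and 0.46 for Psmb7 in the core. In the cap it was 0.39 for Psmd4, 0.61 for Psmd6, 0.39 for Psmd7, 0.68 for Psmd8 and 0.44 for Psmd14, and -0.47 for Psmd2. It was 0.76 for Psme3 and 1.09 for Psmg1, the largest of the 15.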

How the results depend on the processing

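The number of members called under other settings is given beside the main number where it moved by over 1.5 times. For Colgalt2 IP against input (0), it was 3 without the low-count filter, 3 in DESeq2 and 3 in the joint fit. Between the lines at baseline (4), it was 7 without the filter, 7 in DESeq2, 0 with the length trend taken out and 20 in the joint fit. For SOD1*G93A in Gprin3 IPs (6), it was 12 without the filter, 14 in DESeq2, 0 with the length trend taken out and 13 in the joint fit. For SOD1*G93A in Colgalt2 IPs (0) it was 1 in DESeq2, 6 in the joint fit and 0 with the sequenced read as a covariate. In M1 input (1) it was 4 in DESeq2 and 0 in the joint fit. The joint fit gave 11 for WT Gprin3 IP against input (17) and 1 for the difference between lines (0). For the difference between Gprin3 IPs and input (15), it was 7 with the length trend taken out and 6 in the joint fit. With the length trend taken out, Psma6 in WT Gprin3 IP against input turned to 0.0225 and the interaction of Psmb6 to -0.0156. The cause of these changes was not tested. Leaving out each library gave 14 to 27 calls for Gprin3 IP against input at baseline, 0 to 18 for Colgalt2 IP against input, 0 to 17 between lines at baseline, 0 to 14 for SOD1*G93A in Gprin3 IPs, 0 in Colgalt2 IPs, 0 to 1 in M1 input, 10 to 18 for WT Gprin3 IP against input, 1 to 15 between WT IPs, 0 for the difference between lines and 7 to 15 for that between Gprin3 IPs and input. Of 80 calls of a member in a comparison, 28 held with every library left out in turn and 42 under every other setting.

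Samples of the same replicate number did not deviate together (correlations of -0.081 to 0.072). With so few libraries per group this cannot decide whether the numbers pair the samples, and no label says so. With the replicate number as a block, 2 members were called for Colgalt2 IP against input and 12 for SOD1*G93A in Gprin3 IPs; the other counts stayed within 1.5 times. Groups of 2 to 6 libraries and members under 3 CPM limit what could be detected.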
